A study of Mus musculus with 6 samples.

Results

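The cytosolic ribosomal protein genes encode the proteins of the cell's main ribosome, and they were followed here through 6 RNA-seq libraries of a mouse thymoma line. Members were taken by name: a symbol of the form Rpl or Rps with a number and at most a short suffix, or Rpsa, Rplp0, Rplp1 or Rplp2, without the Rps6k kinases, and 1 Ensembl row per symbol, that with the highest mean. The rule gave 82 genes among 25001 loci, of which 22601 carry a symbol. There were 50 genes named for the large subunit and 32 named for the small subunit, and 78 of the 82 reached 1 FPKM (fragments per kilobase of exon, scaled to the fragments of the library) in at least 1 library. The other 4, all named as paralogs, were Rpl10l and Rpl39l, listed at 0 in all 6 libraries, Rpl3l, from 0 to 0.151 FPKM, and Rpl6l, from 0 to 0.523 FPKM. The annotation gives no coding sequence for Rpl6l.

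The study asked which genes respond to EICD, the intracellular domain that is released from the membrane protease epithin/PRSS14, for which the protease SPPL2b was targeted by knockdown. All 6 libraries came from the 427 thymoma line at passage 4-10, grown in DMEM with 10% FBS, with poly(A) RNA selected by oligo-dT. The 427 cells carry the pSUPER vector stably and are given as wild type. They were deprived of serum for 2 h and received DMSO (427 DMSO) or 1 µM PMA, a phorbol ester that activates protein kinase C and induces shedding, for 2 h (427 PMA). The cells given the genotype SPPL2b KD received DMSO (SP2bKD DMSO) or the same PMA treatment (SP2bKD PMA). The last 2 conditions were SPPL2b KD cells transfected with a GFP vector alone (GFP) or with the GFP vector and Flag-EICD (GFP plus EICD), from which GFP-positive cells were sorted. The labels name an siRNA against SPPL2b for all 4 SPPL2b KD libraries, whereas the methods describe a stable shRNA and, for the transfected cells, the single clone 427(SP2bKD)-10. The clone behind SP2bKD DMSO and SP2bKD PMA is not named in the labels.

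Each condition had 1 library, so every difference compares 2 libraries and has no replicate check, and no p-value was computed. Sppl2b, the targeted gene (chromosome 10, 80853006 to 80868705 on GRCm38), had 9.90 FPKM in 427 DMSO, 6.86 in 427 PMA, 13.4 in SP2bKD DMSO, 9.37 in SP2bKD PMA, 11.4 in GFP and 13.2 in GFP plus EICD, so it was not lower in the libraries labelled SPPL2b KD. Those names are used here only as labels. The paper measured SPPL2b mRNA by real-time PCR in its knockdown lines and reported less EICD from them with PMA. A single FPKM value per library cannot decide whether the knockdown held. Of 6 epithelial genes set as a marker list, 4 reached 1 FPKM in every library, with a summed level from 408 to 1115 FPKM, whereas none of 6 T lymphocyte genes did, with sums of at most 0.304 FPKM. Of 5 fibroblast genes, 1 reached 1 FPKM in SP2bKD DMSO and in SP2bKD PMA and none elsewhere, and of 3 myeloid genes found 2 did in every library, with sums from 4.45 to 8.66 FPKM. Whether other cells had a part in the results was not tested.

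Ribosomal proteins join ribosomal RNA in the nucleolus to form the small subunit, which decodes mRNA, and the large subunit, which forms the peptide bond. Their mRNAs are among the most abundant in dividing cells, are made at nearly matched levels, and carry at the 5′ end a run of pyrimidines that begins with C, the TOP motif, through which mTOR and LARP1 set their translation. Many of the genes are spread over the genome, host small nucleolar RNAs in their introns and have left processed pseudogenes.

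The 5′ ends were searched for the pyrimidine run of TOP mRNAs, which some members hold and others do not. Of the 82 genes, 61 were found in the RefSeq promoter table on GRCm38.p6. The windows run from 10 bases before the listed start to 20 bases from it on, 5′ to 3′ on the gene's strand, with the longest pyrimidine run that begins with C within 5 bases of the start in capitals. They are shown for the acidic stalk genes Rplp0 and Rplp2, for Rps6 and Rpl13a, and for some members whose levels departed far between libraries. Rps29 and Rpl36 were not in the promoter table. Rpl11, with a run of 2 bases, and Rpl31, with 7, departed further than Rpl38 and are not shown.
Rplp0: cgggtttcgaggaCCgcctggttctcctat
Rplp2: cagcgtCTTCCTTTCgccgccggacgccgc
Rps6: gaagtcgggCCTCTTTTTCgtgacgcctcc
Rpl13a: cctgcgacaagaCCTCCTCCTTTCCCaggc
Rps27: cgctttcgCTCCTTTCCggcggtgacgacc
Rpl27a: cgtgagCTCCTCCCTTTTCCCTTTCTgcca
Rpl39: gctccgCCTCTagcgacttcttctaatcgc
Rps13: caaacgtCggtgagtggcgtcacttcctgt
Rps15a: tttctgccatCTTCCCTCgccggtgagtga
Rpl38: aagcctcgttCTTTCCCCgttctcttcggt
The windows lie at chr5:115559457-115559486 (Rplp0, plus strand), chr7:141447641-141447670 (Rplp2, plus), chr4:86857348-86857377 (Rps6, minus), chr7:45128726-45128755 (Rpl13a, minus), chr3:90213629-90213658 (Rps27, minus), chr7:109519185-109519214 (Rpl27a, plus), chrX:37085203-37085232 (Rpl39, minus), chr7:116334171-116334200 (Rps13, minus), chr7:118116128-118116157 (Rps15a, minus) and chr11:114668570-114668599 (Rpl38, plus).

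The run was 20 bases in Rpl27a, 14 in Rpl13a, 10 in Rps6, 9 in Rps27 and Rplp2, 8 in Rps15a and Rpl38 and 5 in Rpl39, whereas Rplp0 held 2 and Rps13 held 1. A run of 5 or more bases stood in 28 of the 61 members (45.9%), against 18.5% of all 27025 genes in the table and 21.7% of 69 mitochondrial ribosomal protein genes. A listed start that is off by more than 5 bases hides a run, so this is a count of these windows and not of TOP mRNAs. In the 300 bases from 250 before to 50 after the start, searched on both strands, the letters CCGGAAG were found in 41.0% of the members and 9.12% of all genes, GGGCGG in 59.0% and 35.9%, AAGATGG in 14.8% and 6.48%, and TATAAA in 9.84% and 14.2%. The mitochondrial ribosomal protein genes held CCGGAAG in 36.2%, GGGCGG in 49.3%, AAGATGG in 18.8% and TATAAA in 5.80%.

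The 82 genes lay on 19 chromosomes, 14 of them on chromosome 7. Rps2 and Rpl3l were near neighbours, 5891 bases apart on chromosome 17. For each gene the annotated mRNA with the longest coding part was taken, and the shortest of these where several tied. For Rpl6l, which has no annotated coding part, an annotated transcript was taken. These mRNAs had a median of 731.5 bases, from 271 to 3706, and 28 members hosted 55 small nucleolar RNA genes in all. In the GENCODE transcripts 73 members shared at least one 100-base window with another gene and 35 shared over 50% of their windows, so that reads of a parent gene and its copies may be hard to separate. The table lists 16 ribosomal protein pseudogenes, whose FPKM summed to 141 in 427 DMSO, 250.1 in 427 PMA, 227 in SP2bKD DMSO and in SP2bKD PMA, 248 in GFP and 205 in GFP plus EICD. Most of each sum came from Rpl27-ps3, which had 129, 231, 175, 210, 222 and 184 FPKM in the same order of libraries. In each library from 2 to 4 of the 16 reached 1 FPKM.

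The ribosomal protein genes were expressed at high and similar levels in all libraries. Over the 78 members the mean FPKM had a median of 691, and the median per library was 679 in 427 DMSO, 760.3 in 427 PMA, 654 in SP2bKD DMSO, 656 in SP2bKD PMA, 734 in GFP and 677 in GFP plus EICD. FPKM is set against the fragments of the whole library, and in bulk RNA fewer cells expressing a gene and less RNA per cell cannot be told apart. Large subunit genes had a median mean of 639 FPKM and small subunit genes of 739.9. The members held from 8.93 to 10.8% of the summed FPKM of all Ensembl loci. Of all loci, however, 10 held from 85.1 to 94.0% of the FPKM sum, and the members' share of that sum was from 0.448 to 1.11%.

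The highest levels belonged to Rps12, a small subunit protein of the head, and to Rplp1 and Rplp0 of the stalk that recruits elongation factors. Rps12 had 2505 FPKM in 427 DMSO, 2222 in 427 PMA, 2056 in SP2bKD DMSO, 2007 in SP2bKD PMA, 2367 in GFP and 2246 in GFP plus EICD. Rps21 and Rpl32 followed with means of 2059 and 1836 FPKM. The lowest expressed members were Rpl7l1, a paralog of Rpl7 with a mean of 47.3 FPKM, and Rpl22l1, a paralog of Rpl22, with a mean of 144 FPKM.

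**Figure D1:**
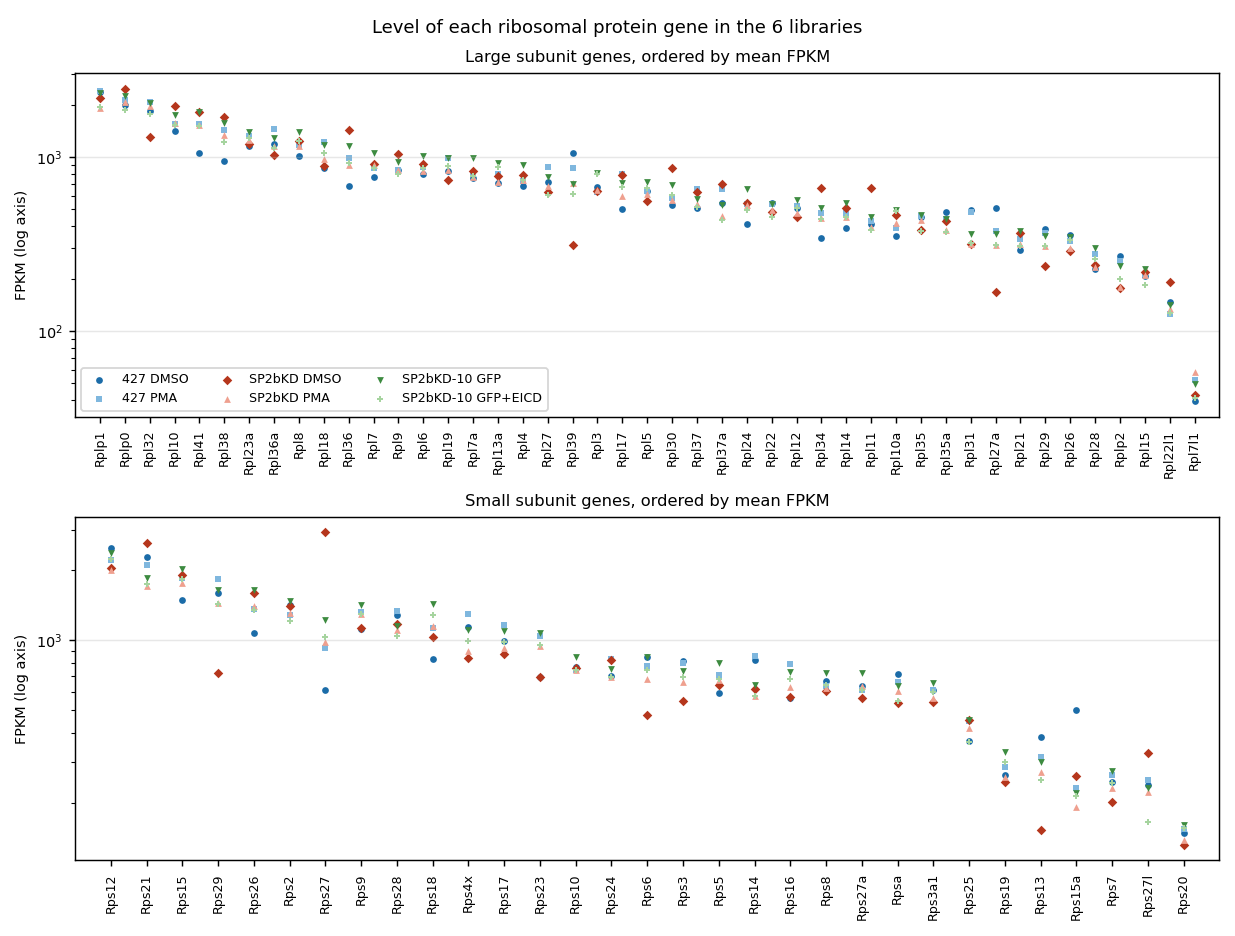
FPKM (log axis) of 76 of the 78 ribosomal protein genes that reached 1 FPKM, large subunit above and small subunit below, ordered by mean, with 1 point for each of the 6 libraries. Most genes have their points close together, and SP2bKD DMSO (red diamonds) lies apart for Rps27 at 2914 FPKM and for Rpl39 at 311 FPKM.

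The ratio of the highest to the lowest library had a median of 1.37 over the 78 members, from 1.14 in Rps10, a protein of the 40S head, to 4.75 in Rps27. It was over 2 in 7 members, which were Rps27, Rpl39, Rpl27a, Rps15a, Rps29, Rps13 and Rpl36. Without SP2bKD DMSO it was over 2 in 1 member, Rps15a at 2.63, and without both DMSO libraries in none, with a median of 1.23. This ratio cannot rise when libraries are left out, and no other library was left out for comparison.

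Most of the members that departed far from the other libraries did so in the 2 DMSO libraries. Each result that rests on these libraries is given with that in view. Against the median of the other 5 libraries, 9 members were past 1.5-fold in SP2bKD DMSO, 6 in 427 DMSO and 1 in 427 PMA (Rpl31), and none in the other libraries. Among 542 other loci of 100 FPKM or more in every library, the share past 1.5-fold was 4.98% in SP2bKD DMSO, 4.8% in 427 DMSO, 7.56% in 427 PMA, 3.87% in SP2bKD PMA, 3.51% in GFP and 12.4% in GFP plus EICD. The members thus had 11.5% of their number past 1.5-fold in SP2bKD DMSO and 7.69% in 427 DMSO, above those loci. They had 0% in GFP plus EICD, where the share of those loci was largest. In GFP plus EICD the log2 departures of those loci had a median of -0.18 and an SD of 0.38, against an SD of 0.39 in SP2bKD DMSO.

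Rps27, a small zinc finger protein of the 40S subunit, was the member that departed furthest. It had 614 FPKM in 427 DMSO, 925 in 427 PMA, 2914 in SP2bKD DMSO, 982 in SP2bKD PMA, 1225 in GFP and 1034 in GFP plus EICD. SP2bKD DMSO was the high library, by 1.57 on the log2 scale over the median of the others, and 427 DMSO the low one. Its mRNA of 345 bases shared 98.4% of its windows with other genes, and the row of its retrogene Rps27rt stayed from 0 to 0.605 FPKM. Its paralog Rps27l, a target of p53, had 238 FPKM in 427 DMSO, 250.1 in 427 PMA, 326 in SP2bKD DMSO, 222 in SP2bKD PMA, 232 in GFP and 164 in GFP plus EICD. SP2bKD DMSO was again the highest library of Rps27l and GFP plus EICD the lowest.

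Rpl39, a very small protein in the wall of the exit tunnel, went the other way. It had 1053 FPKM in 427 DMSO, 871 in 427 PMA, 311 in SP2bKD DMSO, 709.8 in SP2bKD PMA, 698 in GFP and 615 in GFP plus EICD. SP2bKD DMSO was the low library, by 1.19 on the log2 scale, and only 1.75% of the windows of Rpl39 were shared with another gene. Rps29, a zinc finger protein of the 40S head, had 1604 FPKM in 427 DMSO, 1845 in 427 PMA, 722 in SP2bKD DMSO, 1446 in SP2bKD PMA, 1649.8 in GFP and 1437 in GFP plus EICD. SP2bKD DMSO was the low library here too, at a log2 departure of -1.15.

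Rpl27a, a large subunit protein, showed the same order as Rpl39 at its ends. Rpl27a had 510.0 FPKM in 427 DMSO, 378 in 427 PMA, 167 in SP2bKD DMSO, 311 in SP2bKD PMA, 360.2 in GFP and 312 in GFP plus EICD. Its row extends 5129 bases past the annotated gene, so part of its value may not be its own. Rps13, a protein of the 40S body, had 383 FPKM in 427 DMSO, 314 in 427 PMA, 152 in SP2bKD DMSO, 270.4 in SP2bKD PMA, 299 in GFP and 251 in GFP plus EICD. Both were highest in 427 DMSO and lowest in SP2bKD DMSO, with log2 departures of -1.11 and -0.98 in the latter.

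The other members past 1.5-fold in SP2bKD DMSO were Rps6 and Rpl32 on the low side (-0.71 and -0.59 on the log2 scale) and Rpl11 and Rpl36 on the high side (0.69 and 0.63). In 427 DMSO the largest departure was that of Rps15a, a protein of the 40S subunit. Rps15a had 501 FPKM in 427 DMSO, 231 in 427 PMA, 259.7 in SP2bKD DMSO, 191 in SP2bKD PMA, 219.7 in GFP and 214 in GFP plus EICD. Its value in 427 DMSO lay 1.19 above the median of the others on the log2 scale, and 28.5% of its windows were shared with another gene.

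**Figure D2:**
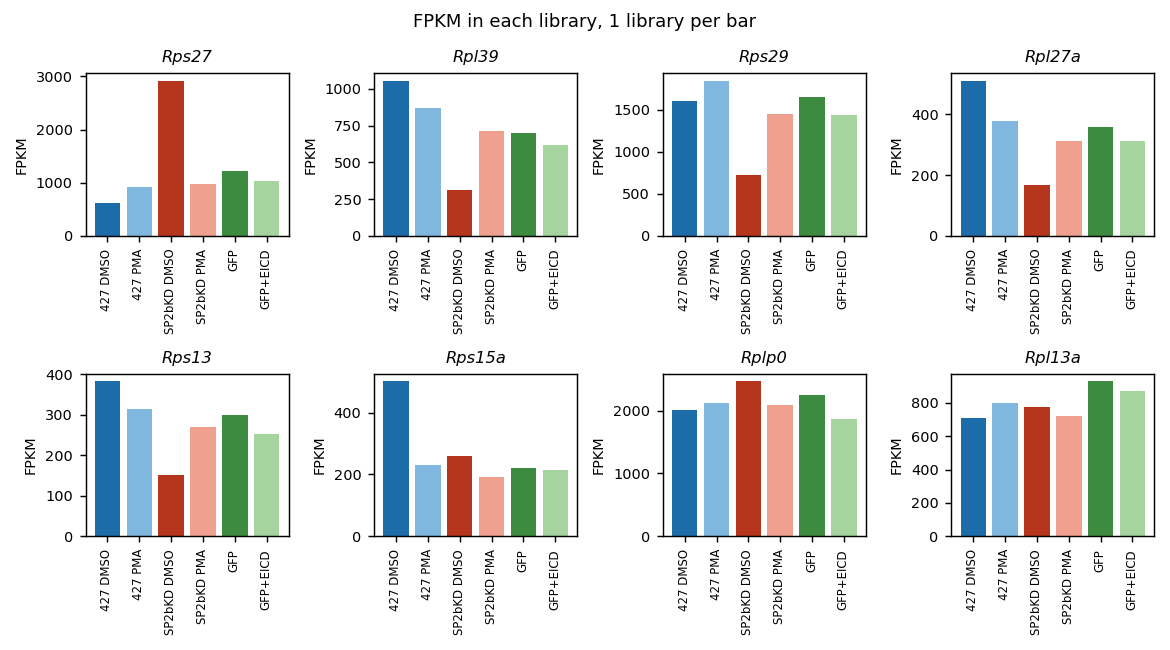
FPKM (linear axis from 0) of 8 ribosomal protein genes, 1 bar per library without error bars because each condition has 1 library. SP2bKD DMSO is the highest bar for Rps27 and the lowest for Rpl39, Rps29, Rpl27a and Rps13, 427 DMSO is the highest for Rps15a, and Rplp0 and Rpl13a stay within 1.32-fold.

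The departures were next split by mRNA length and by shared sequence. In SP2bKD DMSO the SD of the log2 departures was 0.63 over 14 members with an mRNA under 500 bases and 0.36 over the other 64. It was 0.42 both over the 17 members with under 20% of their windows shared and over the other 61. The other libraries did not all follow this. Short mRNAs had the smaller SD in 427 PMA (0.14 against 0.16), SP2bKD PMA (0.10 against 0.11) and GFP plus EICD (0.11 against 0.15), and members with few shared windows had the smaller SD in 427 PMA (0.11 against 0.17) and the larger in SP2bKD PMA (0.16 against 0.10). Across the 78 members, which come from the same library and share its depth, the size of the departure in SP2bKD DMSO had a Spearman rho of -0.13 with mRNA length and -0.06 with the share of windows. Among the pseudogene rows, Rpl10-ps3 had 33.1 FPKM in SP2bKD DMSO and from 0.127 to 3.06 FPKM in the other libraries, and Rps18-ps3 had 2.73 FPKM there and at most 0.310 FPKM elsewhere. The part of read assignment between copies in the departures was not tested.

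**Figure D3:**
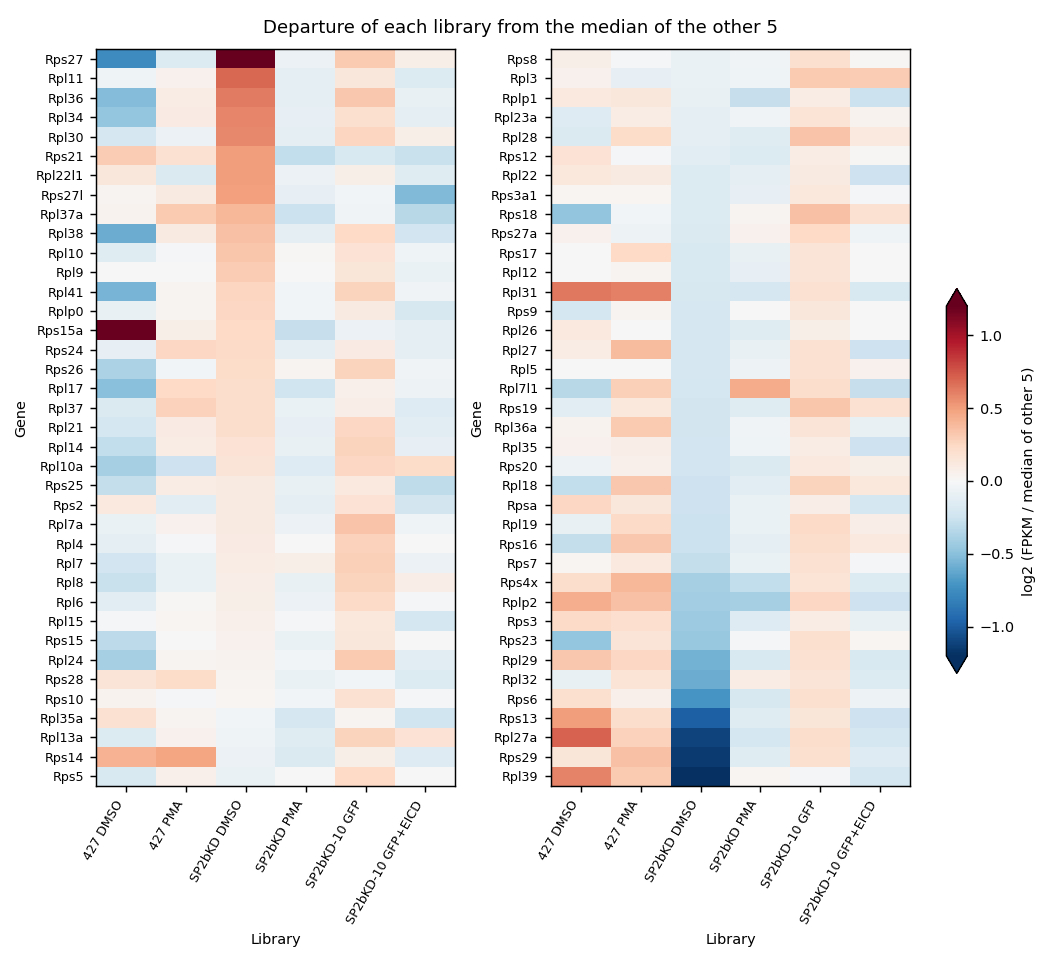
Log2 ratio of each library to the median of the other 5 for 76 of the 78 ribosomal protein genes, ordered by SP2bKD DMSO, with red for higher and blue for lower. SP2bKD DMSO holds the deepest colours at both ends, from Rps27 at 1.57 to Rpl39 at -1.19, and GFP is pale red in most rows.

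By contrast, GFP matched both GFP plus EICD and SP2bKD PMA closely in these genes. The SD of the members' log2 ratio was 0.09 between GFP and GFP plus EICD and 0.10 between SP2bKD PMA and GFP, whereas over the 542 other abundant loci it was 0.33 and 0.36. Between 427 DMSO and SP2bKD DMSO it was 0.58 over the members and 0.46 over those loci, the reverse order. Between 427 PMA and SP2bKD PMA it was 0.17 and 0.29.

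The first comparison was of PMA with DMSO in 427 cells, in which the ribosomal protein genes were slightly higher with PMA, as abundant loci in general were. A gene was counted as higher or lower when the FPKM plus 0.01 differed by more than 1.2-fold. Of the 78 members 22 were higher and 4 lower, where 17.5% of the 10643 loci of 1 FPKM or more were higher and 35.3% lower, and where 27.8% of the 969 loci of 100 FPKM or more in either library (called abundant here, the members included) were higher and 7.64% lower. The median log2 fold change was 0.13 for the members (quartiles -0.03 and 0.28), -0.12 for all loci and 0.08 for the abundant ones. With the libraries scaled to the whole FPKM sum, of which 10 loci held over 93% in both, the median turned to -0.12, with 6 members higher and 22 lower. Past 2-fold there was 1 member, Rps15a, which was 2.17-fold lower, where 4.67% of loci were lower and 3.91% higher.

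The members with the largest rises were Rpl17 at the tunnel exit, Rpl38, known for its role in translating homeobox mRNAs, and Rps27 and Rps23. Rpl17 had 501 FPKM in 427 DMSO and 801 in 427 PMA, a 1.60-fold difference, with 785 in SP2bKD DMSO, 599 in SP2bKD PMA, 707 in GFP and 677 in GFP plus EICD, so that 427 DMSO was its lowest library. The row of Rpl17 extends 1959 bases past the annotated gene and 77.1% of its windows were shared, so part of its value may not be its own. Rpl38 had 951 FPKM in 427 DMSO against a range from 1220.3 to 1706 in the other 5. Rps23, a protein of the decoding centre, differed in that both DMSO libraries were low. Rps23 had 693 FPKM in 427 DMSO, 1046 in 427 PMA, 696 in SP2bKD DMSO, 941 in SP2bKD PMA, 1075 in GFP and 954 in GFP plus EICD.

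In SP2bKD cells the members were centred near 0 with PMA in the deposited values. Of the 78 members 10 were higher and 14 lower, against 17.2% and 38.3% of all 10624 loci and 22.1% and 14.5% of 977 abundant loci. The median log2 fold change was -0.03 for the members, -0.15 for all loci and 0.02 for the abundant loci. With the libraries scaled to the FPKM sum without the 10 largest loci, the members' median was -0.22, with 6 higher, 36 lower and 66 of 78 below 0. Rpl39 and Rps29 were 2.28-fold and 2.00-fold higher and Rps27 was 2.97-fold lower, where 3.51% of loci were more than 2-fold higher and 5.69% lower. For all 3, SP2bKD DMSO was the library that departed furthest from the other 5.

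The 2 PMA comparisons were set side by side for each member, and share no library with each other. Rps23 and Rpl7l1 were more than 1.2-fold higher in both and Rps15a more than 1.2-fold lower in both. Rpl7l1, with 39.5 FPKM in 427 DMSO, 52.4 in 427 PMA, 42.9 in SP2bKD DMSO and 58.3 in SP2bKD PMA, was 1.33-fold and 1.36-fold higher. In 9 members the change passed 1.2-fold in opposite directions. Other loci were not counted in this way. The difference between the lines was not tested, since it rests on 4 single libraries. It had a median of -0.16 on the log2 scale over the members.

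The second pair of comparisons was of SP2bKD with 427 cells, and reuses the 4 libraries of the PMA comparisons. With DMSO, 25 of 78 members were higher and 18 lower in SP2bKD cells, where 24.3% of 10706 loci were higher and 18.4% lower and 22.6% and 18.7% of 930 abundant loci were. The median log2 fold change was 0.02 (quartiles -0.22 and 0.30), against 0.05 for all loci. It turned to -0.02 with upper quartile scaling and rose to 0.98 with scaling to the whole FPKM sum. Rps27 and Rpl36 were 4.75-fold and 2.08-fold higher and Rpl39, Rpl27a, Rps13 and Rps29 were 3.39-fold, 3.06-fold, 2.52-fold and 2.22-fold lower, where 3.11% of loci were more than 2-fold higher and 2.76% lower. These 6 are members that stood apart in SP2bKD DMSO. Rpl36, a large subunit protein, had 685 FPKM in 427 DMSO, 981 in 427 PMA, 1423 in SP2bKD DMSO, 905 in SP2bKD PMA, 1153 in GFP and 923 in GFP plus EICD.

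With PMA the members were lower in SP2bKD cells by a small amount, although scaling to the whole FPKM sum turned all 78 to higher, with a median of 1.12. None was more than 1.2-fold higher and 21 of 78 were lower, where 20.8% of 10518 loci were higher and 18.3% lower and where 9.25% of 984 abundant loci were higher and 19.9% lower. The median was -0.12, against 0.02 for all loci and -0.05 for abundant loci, and 66 of 78 members were below 0. No member passed 2-fold, where 2.19% of loci were higher and 2.75% lower. Rpl31 and Rps14 were among the lowest. Rpl31, a protein at the tunnel exit, had 495 and 485 FPKM in 427 DMSO and 427 PMA and from 315 to 363 in the others. Rps14, a protein of the 40S platform, had 821 and 855 FPKM in the 427 libraries and from 573 to 645 in the others. For both genes the 427 libraries lay above all 4 SPPL2b KD libraries. The same held for 13 of the 78 members, these included, and the reverse for 4 (Rps27, Rpl7, Rpl4 and Rpl10a), against 13.3% and 9.96% of the 542 other abundant loci, so the members were not far from those loci in this.

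Levels were then compared between GFP and SP2bKD DMSO, a library that the comparisons above also use. The 2 libraries differ by the DMSO vehicle, transfection, sorting, serum deprivation and possibly clone, and these cannot be told apart. The members were higher in GFP, with 32 of 78 more than 1.2-fold higher and 9 lower, where 18.6% of 10687 loci were higher and 30.3% lower and where 21.1% of 969 abundant loci were higher and 16.1% lower. The median was 0.21, against -0.08 for all loci and 0.01 for abundant loci. With the libraries scaled to the FPKM sum without the 10 largest loci, the median turned to -0.05, with 8 members higher and 18 lower. Rps29, Rpl39 and Rpl27a were more than 2-fold higher (2.29-fold, 2.25-fold and 2.16-fold) and Rps27 was 2.38-fold lower, where 3.56% of loci were higher and 4.14% lower, and all 4 are members that stood apart in SP2bKD DMSO. With SP2bKD PMA in its place, a choice made after seeing the data, GFP was higher for 76 of 78 members. It was higher by more than 1.2-fold for 22 of them, against 28.6% of all 10623 loci and 15.5% of the 987 abundant loci. The median of SP2bKD PMA over GFP was -0.21, against -0.04 for all loci and -0.01 for abundant loci. The log2 ratio of SP2bKD PMA over GFP was -0.19 for Rps29, 0.02 for Rpl39 and -0.32 for Rps27, far smaller than against SP2bKD DMSO. GFP was the highest library for 35 of the 78 members and the lowest for none, counts that were not made for other loci.

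The last comparison was of GFP plus EICD with GFP, the library shared with the comparison before it. Every one of the 78 members had a lower deposited FPKM in GFP plus EICD, by a small and even amount, although 64 of them turned higher when scaled to the FPKM sum without the 10 largest loci. The median log2 fold change was -0.20, or 0.873-fold, with quartiles of -0.26 and -0.15 and a range from -0.50 in Rps27l to -0.01 in Rpl3. None was more than 1.2-fold higher and 19 were lower, where 28% of 10687 loci were higher and 14.6% lower, but where 12.6% of 965 abundant loci were higher and 33.9% lower. No member passed 2-fold, where 3.55% of loci were higher and 0.524% lower. The median of the abundant loci was -0.17, so the members moved with the abundant loci in the deposited values, and differed from them in their spread. The SD was 0.09 over the members and 0.48 over the abundant loci, which need 100 FPKM in only 1 of the 2 libraries. It was 0.33 over the 542 other loci of 100 FPKM or more in every library.

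The direction of this result depends on the scale of the libraries. With the median of the abundant loci set to 0, 48 of 78 members were below 0 and the median was -0.02. With the FPKM sum without the 10 largest loci the median was 0.08, and with the whole FPKM sum all 78 were below 0 with a median of -0.38. The spread of the members does not change with the scale, which moves all genes alike.

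**Figure D4:**
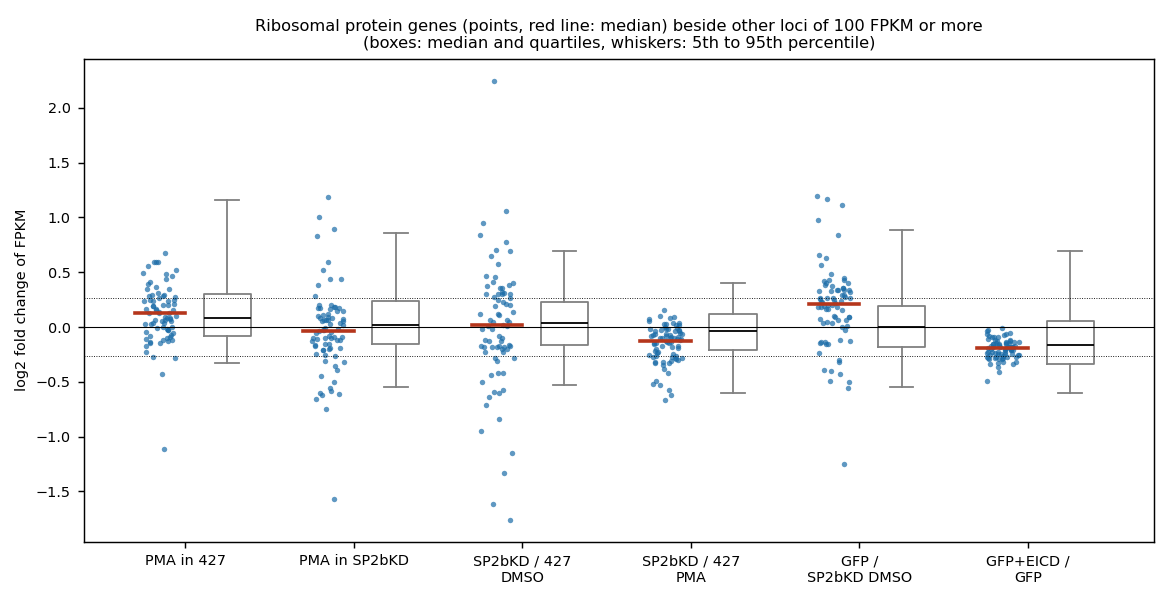
Log2 fold change of FPKM for the 78 ribosomal protein genes (blue points, red line at their median) in 6 comparisons, beside all other loci of 100 FPKM or more (boxes with median and quartiles, whiskers from the 5th to the 95th percentile), with dotted lines at 1.2-fold. The members scatter widely in SP2bKD against 427 with DMSO and lie in a narrow band below 0, with a median of -0.20, in GFP plus EICD against GFP, a median that turns to 0.08 when scaled to the FPKM sum without the 10 largest loci.

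The genes of named role were described in turn. Rplp0, the scaffold of the stalk, had 2003 FPKM in 427 DMSO, 2127 in 427 PMA, 2466 in SP2bKD DMSO, 2081 in SP2bKD PMA, 2241 in GFP and 1864 in GFP plus EICD. Rplp1, which binds it together with Rplp2, had 2360.5, 2398, 2181, 1914, 2322 and 1942 FPKM in the same order. Rplp2 had 270.0, 254, 178, 180.0, 238 and 199.7 FPKM. The levels of the 2 acidic partners, which join the stalk as a pair, thus differed by far in all 6 libraries. Both were higher in the 427 libraries than in any SPPL2b KD library, and Rplp0 was not.

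Rpl5 and Rpl11 form with 5S rRNA the particle that binds Mdm2 when ribosome assembly is disturbed. Rpl5 had 641 FPKM in 427 DMSO, 639 in 427 PMA, 556 in SP2bKD DMSO, 615 in SP2bKD PMA, 723 in GFP and 663 in GFP plus EICD. Rpl11 had 411, 427, 665, 396, 453 and 379.7 FPKM in the same order. Rpl5 was lowest and Rpl11 highest in SP2bKD DMSO, so the 2 partners did not move together in that library.

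Rps6, the substrate of the S6 kinases, had 850.0 FPKM in 427 DMSO, 775 in 427 PMA, 475 in SP2bKD DMSO, 679.8 in SP2bKD PMA, 851 in GFP and 744 in GFP plus EICD. Rps3, at the mRNA entry, had 813, 796, 547, 664, 738 and 692 FPKM. Rpsa, the 40S protein also known as the laminin receptor, had 715, 664, 535, 602, 637 and 550.5 FPKM. All 3 were lowest in SP2bKD DMSO. Rpl13a, which is known for holding back the translation of inflammatory mRNAs once phosphorylated, had 712, 800.1, 774, 721, 929 and 874 FPKM. It was highest in GFP and lowest in 427 DMSO.

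The paralogs were expressed far below their parents. Rpl7l1 had a mean of 47.3 FPKM and Rpl7, its parent in name, 895 FPKM. Rpl22l1 had 147 FPKM in 427 DMSO, 125 in 427 PMA, 190.5 in SP2bKD DMSO, 134 in SP2bKD PMA, 141 in GFP and 128 in GFP plus EICD. Rpl22 had 545, 538, 481, 499, 538 and 454 FPKM. Rpl22l1 was highest in SP2bKD DMSO and Rpl22 in 427 DMSO. The parents Rpl3, which lies near the peptidyl transferase centre, Rpl10, which is added late, and Rps4x, the X-linked 40S protein, had means of 699, 1627 and 1048 FPKM. For Rpl10l and Rpl39l, the paralogs known from the testis, the files listed 0.

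Some parts of the ribosome fell outside the name rule. Fau, which encodes the 40S protein eS30 as a fusion, had 707 FPKM in 427 DMSO, 842 in 427 PMA, 939.6 in SP2bKD DMSO, 1019 in SP2bKD PMA, 1168 in GFP and 1023 in GFP plus EICD. Gnb2l1, the older symbol of Rack1, a scaffold on the 40S head, had 814, 943, 796, 897, 1066 and 1029.9 FPKM. Both were highest in GFP. Rpl23 was found only as a newly assembled row, which the rule leaves out, with 938 FPKM in 427 DMSO and from 455 to 640.0 in the other 5. Rps27a, the ubiquitin fusion that the rule includes, had 634, 608, 562, 633, 721 and 611 FPKM in the same order.

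Genes that make or use ribosomes were described by lists. Of 20 dedicated chaperones, assembly factors and importers of ribosomal proteins found, 11 were more than 1.2-fold higher and 0 lower with PMA in 427 cells (median 0.33), and 12 higher and 0 lower with PMA in SP2bKD cells (median 0.32). Of all loci 17.5% were higher and 35.3% lower in the first comparison and 17.2% and 38.3% in the second. The ribosomal proteins themselves had medians of 0.13 and -0.03 in the same comparisons. Grwd1, a chaperone of Rpl3, had 25.6 FPKM in 427 DMSO, 43.1 in 427 PMA, 18.8 in SP2bKD DMSO, 40.3 in SP2bKD PMA, 32.7 in GFP and 21.9 in GFP plus EICD. Rrs1, which brings the 5S particle into the early 60S subunit, had 37.4, 56.8, 29.8, 61.5, 49.3 and 38.8 FPKM. Tsr1, a 40S assembly factor, had 57.9, 93.1, 48.6, 93.4, 65.2 and 54.5 FPKM. In the deposited values these 3 had the largest rises of the 20 with PMA in both lines. That all 3 were higher in both PMA libraries than in both DMSO libraries thus adds nothing to the counts. Under the scalings tried the median of the 20 genes stayed above 0 with PMA, between 0.07 and 0.36 for 427 cells and between 0.13 and 0.39 for SP2bKD cells, with 3 higher and 3 lower at its lowest in 427 cells.

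The same 20 genes were 0 higher and 8 lower in SP2bKD against 427 cells with DMSO, 0 and 3 with PMA, 10 and 0 in GFP against SP2bKD DMSO, and 1 and 7 in GFP plus EICD against GFP. In the same order 24.3%, 20.8%, 18.6% and 28% of all loci were higher and 18.4%, 18.3%, 30.3% and 14.6% lower. Scaling to the whole FPKM sum turned all 20 to more than 1.2-fold higher in both comparisons of SP2bKD with 427 cells, and scaling without the 10 largest loci left 3 higher and 1 lower in GFP against SP2bKD DMSO. Of 19 translation factors and other TOP mRNA genes found, 3 were higher and 0 lower with PMA in 427 cells, 0 and 1 with PMA in SP2bKD cells, 5 and 2 in SP2bKD against 427 cells with DMSO, 0 and 1 with PMA, 2 and 1 in GFP against SP2bKD DMSO, and 0 and 8 in GFP plus EICD against GFP. Of the abundant loci, in the same order, 27.8%, 22.1%, 22.6%, 9.25%, 21.1% and 12.6% were higher. The shares of abundant loci that were lower were 7.64%, 14.5%, 18.7%, 19.9%, 16.1% and 33.9%. Whole-sum scaling turned all 19 to higher in both comparisons of SP2bKD with 427 cells. It gave 0 higher and 6 lower with PMA in 427 cells. Without the 10 largest loci, 0 were higher and 7 lower with PMA in SP2bKD cells and 0 and 4 in GFP against SP2bKD DMSO. Eef1b2, an elongation factor subunit, had 711 FPKM in SP2bKD DMSO and from 346 to 513 in the other 5, so that it too was highest there. The 72 mitochondrial ribosomal protein genes had 7 higher and 3 lower with PMA in 427 cells, 6 and 16 with PMA in SP2bKD cells, 18 and 15 and then 6 and 10 in SP2bKD against 427 cells with DMSO and with PMA, 7 and 13 in GFP against SP2bKD DMSO, and 2 and 29 in GFP plus EICD against GFP, with a median of -0.21 in the last. Of all loci, in the same order, 17.5%, 17.2%, 24.3%, 20.8%, 18.6% and 28% were higher. The shares of all loci that were lower were 35.3%, 38.3%, 18.4%, 18.3%, 30.3% and 14.6%. With whole-sum scaling the mitochondrial genes had 0 higher and 37 lower with PMA in 427 cells. They had 71 and 0 and then 72 and 0 in SP2bKD against 427 cells with DMSO and with PMA. Without the 10 largest loci they had 1 and 35 with PMA in SP2bKD cells and 2 and 47 in GFP against SP2bKD DMSO. In GFP plus EICD against GFP the medians of the 3 lists turned to between 0.04 and 0.07 with the libraries scaled to the FPKM sum without the 10 largest loci, as that of the ribosomal proteins did.

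**Figure D5:**
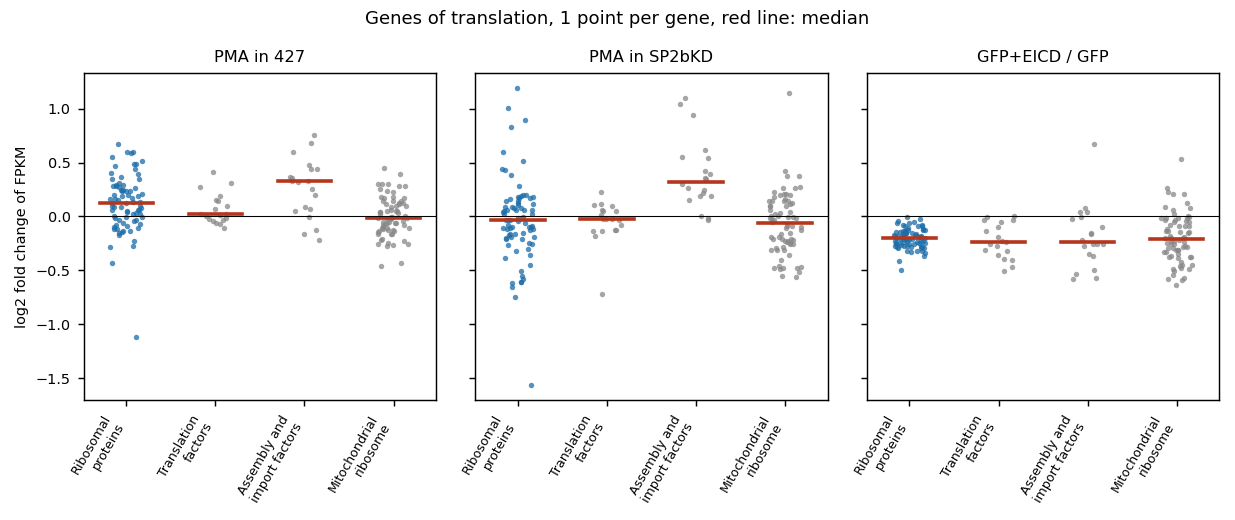
Log2 fold change of FPKM, 1 point per gene with a red line at the median, for the 78 ribosomal protein genes (blue), 19 translation factors, 20 assembly and import factors and 72 mitochondrial ribosomal protein genes, in 3 comparisons. The assembly and import factors have medians of 0.33 and 0.32 with PMA, above the ribosomal proteins, and in GFP plus EICD against GFP all 4 groups have medians from -0.24 to -0.20, which turn to between 0.04 and 0.08 when scaled to the FPKM sum without the 10 largest loci.

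The pyrimidine run at the start did not separate the members by their changes. In GFP plus EICD against GFP the median was -0.19 for the 28 members with a run of 5 or more and -0.21 for the 30 with a shorter one that reached 1 FPKM. With PMA it was 0.08 and 0.11 in 427 cells and -0.04 in both sets in SP2bKD cells. By name, the large subunit genes had a median of 0.12 and the small subunit genes of -0.11 in SP2bKD against 427 cells with DMSO. In GFP plus EICD against GFP these medians were -0.22 and -0.17.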

How the data were processed

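RNA-seq gave 6 libraries, 1 per condition. The authors aligned paired-end reads with TopHat2 2.1.1, and computed and normalised FPKM with Cufflinks 2.1.1 and Cuffdiff 2.1.1. The submitters' processing notes also list STAR 2.4.0b and the build GRCm38. The deposited FPKM values, 1 per locus and library, were used as they stand. FPKM of short genes with many copies depends on the assembled models and on how reads are shared.

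Log2 fold changes were computed as log2(FPKM + 0.01) in both libraries, for loci with a symbol and 1 FPKM or more in at least 1 of the 2, so that low genes are understated. With 1 library per condition no test was run, and genes past 1.2-fold or 2-fold were counted. Named genes were members past 2-fold, the 3 highest and 3 lowest in each comparison, the 5 highest and 5 lowest by mean level, paralogs with their parents, genes of set roles, ribosome parts outside the name rule and Sppl2b. Of the members, 2 are counted throughout but not reported by name. The members and the lists were chosen with earlier results of these data known. Analyses used Python 3.11.15, NumPy 2.4.6, pandas 2.3.3, SciPy 1.17.1 and matplotlib 3.10.9. The fold step and the 2-fold counts were run on simulated data with planted changes past 2-fold. The 1.2-fold counts were not checked in this way. Annotation came from GENCODE and 5′ ends from RefSeq on GRCm38.p6. Fragment counts were not analysed here. A rough estimate from low values was 24300000 to 28900000 fragments per library, uncertain because only 37.3 to 45.1% of those values came within 0.1 of a whole number. It would give a median of 13306 to 15567 fragments per member, so that counting error is small beside the differences described, whereas the error between cultures is unknown. Alternatives were another pseudocount, other filters, 4 scalings, all loci, which leaves the members' values unchanged, and summed rows. Chosen after seeing the data were centring on abundant loci, members with few shared windows and another reference library for GFP.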

Additional observations from a re-analysis of the deposited data

Results flagged for a closer look

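In 9 ribosomal protein genes PMA went past 1.2-fold in opposite directions in 427 and in SP2bKD cells. The number of other loci that did so was not counted. The difference was not tested, because each condition had 1 library. The log2 change in SP2bKD cells minus that in 427 cells was -2.16 for Rps27 (0.59 in 427 cells and -1.57 in SP2bKD cells), -1.17 for Rpl36 (0.52 and -0.65), -1.07 for Rpl17 (0.68 and -0.39), -1.05 for Rpl34 (0.47 and -0.58), -0.95 for Rpl38 (0.59 and -0.36) and -0.87 for Rpl37a (0.27 and -0.61). It was 1.46 for Rpl39 (-0.27 and 1.19), 1.33 for Rpl27a (-0.43 and 0.90) and 1.12 for Rps13 (-0.29 and 0.83). In these genes, except Rpl37a, the PMA libraries lay closer to each other than the DMSO libraries did. Rps27 had 925 and 982 FPKM with PMA and 614 and 2914 FPKM with DMSO. Rpl39 had 871 and 709.8 FPKM with PMA and 1053 and 311 FPKM with DMSO.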

How the results depend on the processing

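Each condition had 1 library, so no library could be left out within a condition. No paired analysis was possible because the groups compared share a single replicate number and no test was run. With upper quartile scaling or summed rows, medians moved by less than 0.1 and counts past 1.2-fold stayed within 1.5 times. They did so too with 1 added to both libraries or a filter of 100 FPKM. Neither setting could move genes at such levels by much, so this is no check of the results. Taking all loci leaves the members' values as they are and tests nothing. Medians near 0 turned in sign, that of SP2bKD against 427 cells with DMSO to -0.025 with upper quartile and -0.020 with median ratio scaling, and that of PMA in SP2bKD cells to 0.030 with median ratio scaling. Median ratio scaling left 2 members lower with PMA in 427 cells. Without a filter, and with the study's 0.001 added to 1 library, 2 members were higher in SP2bKD against 427 cells with PMA. Scaling to a sum of 1000000 is set by the 10 loci that hold most of the sum. It gave medians of -0.12 for PMA in 427 cells (6 higher, 22 lower), 0.98 (71 and 3) and 1.12 (78 and 0) for SP2bKD against 427 cells with DMSO and with PMA, and -0.38 with 71 lower for GFP plus EICD. With DMSO it reversed Rpl31 to 0.33, Rpl32 to 0.46, Rplp2 to 0.36, Rps12 to 0.68, Rps14 to 0.55, Rps15a to 0.020, Rps3 to 0.40, Rps4x to 0.53, Rps6 to 0.13 and Rpsa to 0.55. With PMA it reversed Rpl17 to 0.83, Rpl27a to 0.97, Rpl31 to 0.63, Rpl39 to 0.95, Rplp1 to 0.92, Rplp2 to 0.75, Rps14 to 0.67, Rps15a to 0.97, Rps21 to 0.95, Rps29 to 0.90 and Rps4x to 0.72. Scaling without the 10 largest loci gave -0.22 (6 higher, 36 lower) for PMA in SP2bKD cells, 0.16 for SP2bKD against 427 cells with DMSO, -0.052 (8 and 18) for GFP against SP2bKD DMSO, and 0.084 (1 and 0) for GFP plus EICD, where Rpl7l1 turned to 0.0030 and Rplp0 to 0.014. The other alternatives were chosen after seeing the data. With the median of abundant loci at 0, 14 members were higher with PMA in 427 cells, and GFP plus EICD gave -0.024 with 1 lower. Over the 17 members with few shared windows the median for SP2bKD against 427 cells with DMSO was 0.20. With SP2bKD PMA in place of SP2bKD DMSO against GFP, 0 were lower, and Rpl11 turned to 0.20, Rpl22l1 to 0.073, Rpl34 to 0.19, Rpl36 to 0.35, Rpl39 to -0.023, Rps21 to 0.11, Rps27 to 0.32 and Rps27l to 0.066. Apart from the scalings' own construction, the cause of these changes was not tested. Depth limits little at these levels, and the spread between cultures cannot be estimated.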
